A study of Mus musculus with 8 samples.

Results

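Neutrophils are white blood cells that store antimicrobial proteins in granules, and 10 genes whose transcripts mark these cells were followed in mouse basilar membrane taken at P6, an early postnatal age. The members were taken by gene name: the alarmins S100a8 and S100a9, the granule genes Ngp, Camp, Ltf, Lcn2, Mpo and Elane, and Retnlg and Ly6g. All 10 were found among the 78317 genes of the deposited expression table. The data hold 4 hete and 4 homo libraries of polyadenylated RNA from the cochlear basilar membrane, the strip of tissue on which the sensory hair cells sit. The genotype tag gives the hete libraries as WT and the homo libraries as Dnajc17 cKO. Dnajc17 encodes a J-domain protein, and the study's title links it to splicing in hair cells and to hearing. Group names follow the titles, hete and homo, because title and tag differ on whether the hete animals carry a mutant allele. No label gives the Cre driver, the strain or the number of animals behind a library, so p-values measure the spread between libraries, which may be technical. Dnajc17 itself was not lower in the libraries labelled homo. Its values were 26.51, 25.45, 25.09 and 22.06 TPM in those labelled hete and 29.33, 27.65, 31.08 and 18.04 in those labelled homo (limma-trend log2 fold change 0.07, SE 0.15, adjusted p = 0.969). A total over the whole gene may include cells without the deletion and exons outside it, and neither can be separated here, so this gene gives no check of the labels. Every direction below rests on the labels alone, and hete and homo stand for libraries so labelled.

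S100a8 and S100a9 encode small calcium-binding proteins that pair to form calprotectin, an abundant protein of the neutrophil cytosol that acts as an alarm signal when it is released. Developing granulocytes fill their granules in steps. Azurophil granules, made first, carry myeloperoxidase (Mpo) and neutrophil elastase (Elane), while specific granules, made later, carry lactoferrin (Ltf), lipocalin 2 (Lcn2), cathelicidin (Camp) and the neutrophilic granule protein Ngp. Transcription factors of the C/EBP family and PU.1 drive many of these genes. Resident immune cells of the cochlea are mostly macrophages, and neutrophils are best known there from blood or after injury.

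The sequences upstream of 4 members are shown because these genes had the largest differences between groups in the sections that follow. They are the 250 bases before the annotated start from RefSeq on GRCm38.p6, the build of that table and not the authors' GRCm39, where all 10 members matched by symbol. Capitals mark the C/EBP consensus TTGCNNAA and the PU box GAGGAA, searched on both strands; no 2 matches overlap in these 4 sequences.
S100a8 (chr3:90668821-90669070, plus strand): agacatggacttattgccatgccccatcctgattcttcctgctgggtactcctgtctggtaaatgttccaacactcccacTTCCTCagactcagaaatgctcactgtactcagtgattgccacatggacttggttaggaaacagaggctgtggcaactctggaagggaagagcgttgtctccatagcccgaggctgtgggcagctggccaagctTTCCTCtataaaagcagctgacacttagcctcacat
S100a9 (chr3:90695722-90695971, minus strand): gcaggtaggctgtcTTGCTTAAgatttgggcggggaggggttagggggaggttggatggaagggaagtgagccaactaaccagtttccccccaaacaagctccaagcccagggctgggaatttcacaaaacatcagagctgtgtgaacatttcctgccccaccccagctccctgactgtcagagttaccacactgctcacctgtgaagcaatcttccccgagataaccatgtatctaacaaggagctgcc
Ngp (chr9:110419558-110419807, plus strand): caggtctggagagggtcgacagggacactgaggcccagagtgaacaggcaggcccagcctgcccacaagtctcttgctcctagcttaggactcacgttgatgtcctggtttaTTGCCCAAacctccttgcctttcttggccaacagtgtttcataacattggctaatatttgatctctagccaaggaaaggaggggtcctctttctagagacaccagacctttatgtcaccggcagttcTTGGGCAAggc
Ltf (chr9:111019042-111019291, plus strand): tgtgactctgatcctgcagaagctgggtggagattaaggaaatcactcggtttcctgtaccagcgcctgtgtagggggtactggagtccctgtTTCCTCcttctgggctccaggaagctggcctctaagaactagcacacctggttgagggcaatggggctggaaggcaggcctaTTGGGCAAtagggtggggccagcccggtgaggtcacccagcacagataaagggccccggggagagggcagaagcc

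S100a8 and S100a9 lie next to each other on chromosome 3 of that annotation, with 0 annotated genes between them. The S100a9 sequence held 1 C/EBP match, TTGCTTAA, beginning 236 bases before the start, and no PU box. The S100a8 sequence held no C/EBP match and 2 PU boxes, which begin 170 and 36 bases before the start. Ngp held 2 C/EBP matches, TTGCCCAA at 138 and TTGGGCAA at 11 bases before the start, and Ltf held 1, TTGGGCAA at 75 bases. Over the 10 members, 6 had a C/EBP match and 6 had a PU box in at least 1 annotated promoter. Of all 32851 promoter windows of the same length, 9.56% held the C/EBP letters and 23.3% the PU box letters. A match describes the letters only.

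Values are TPM, which divides by transcript length and scales each library to the same total, so levels may be compared between genes. Means are given ± SD over the libraries of a group (n = 4). TPM keeps no record of sequencing depth, which is unknown here. Zeros are called listed at 0, since they may be failed estimates. The members stood low in this tissue. Their mean over the 8 libraries ran from 0.0163 TPM for Ly6g to 7.15 for S100a9, and 71.2% of the 39753 genes above 0 in any library had a lower mean than S100a9. In all, 21 of the 80 member values were listed at 0. The 4 members S100a8, S100a9, Ngp and Camp had a mean of at least 1 TPM and entered the main test, and the 6 others did not. Bulk RNA cannot tell fewer cells of a type from less RNA per cell.

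S100a9 showed the largest difference of the 10 on the log2(TPM + 1) scale, while the ratio of homo to hete means was larger for Ngp, at 7.89 against 6.35. Hete replicates 1 to 4 held 1.19, 2.25, 3.05 and 1.29 TPM, whereas homo replicates 1 to 4 held 33.1, 5.67, 4.94 and 5.67 TPM. The groups did not overlap, and homo replicate 1 stood far above the rest. From a hete mean of 1.95 ± 0.878 TPM and a homo mean of 12.3 ± 13.8, limma-trend put the log2 fold change at 1.77, with an SE of 0.57, a 95% interval of 0.44 to 3.11 and an adjusted p = 0.727. On the log2(TPM + 1) scale S100a9 ranked 34 from the top among the fold changes of 17811 tested genes. Without homo replicate 1 the homo mean was 5.43 TPM, the log2 fold change was 1.17, and the 3 remaining homo values still lay above every hete value.

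S100a8, its partner, had 2.71, 2.13, 2.47 and 1.46 TPM in the hete libraries and 11.31, 4.34, 6.6 and 1.73 in the homo libraries. Homo replicate 4 fell within the hete range, while the other 3 homo libraries lay above it. With a hete mean of 2.19 ± 0.543 TPM and a homo mean of 6.0 ± 4.06, the limma-trend log2 fold change came to 0.95, with an SE of 0.41, a 95% interval of 0.02 to 1.88 and an adjusted p = 0.817. Without homo replicate 1 it was 0.61.

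The balance of the calprotectin genes differed between libraries. Hete replicates 1 to 4 had S100a9 to S100a8 ratios of 0.439, 1.06, 1.23 and 0.884, against 2.93, 1.31, 0.748 and 3.28 for homo replicates 1 to 4. S100a9 was the higher of the pair in 2 of 4 hete and 3 of 4 homo libraries, and the groups overlapped. Homo replicate 4 had the highest ratio because its S100a8 value was low and its S100a9 value equalled that of homo replicate 2. The summed TPM of the pair was 2.75 to 5.52 in hete and 7.4 to 44.41 in homo.

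Of the specific granule genes, Ngp, which encodes a cystatin-like granule protein, differed most. Its hete values were 0.09, 0.09, 0.62 and 0.51 TPM, and its homo values 6.47, 0.87, 2.21 and 0.79. The groups did not overlap, although homo replicate 4 exceeded hete replicate 3 only by a small margin. By limma-trend the log2 fold change reached 1.2, with an SE of 0.43, a 95% interval of 0.24 to 2.15 and an adjusted p = 0.732, and it was 0.76 without homo replicate 1. Ngp passed the filter through its homo values, so it had to differ to be tested. With a pseudocount of 0.1 in place of 1, its log2 fold change was 2.42, above the 2.18 of S100a9.

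Ltf, which encodes the iron-binding lactoferrin, had 0.04, 0.2, 1.12 and 0.57 TPM in the hete libraries and 1.55, 0.44, 2.41 and 0.87 in the homo libraries. The groups overlapped, and homo replicate 3 was the highest library, not homo replicate 1. With a mean of 0.9 TPM, Ltf was read from the fit with no filter on low values, where its log2 fold change was 0.62 (SE 0.31; limma-trend, adjusted p = 0.816). Without homo replicate 1 it was 0.55, without homo replicate 3 it was 0.41, and with a pseudocount of 0.1 it was 1.5.

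Camp, which encodes the precursor of the cathelicidin peptide, had 4.29, 1.77, 1.23 and 1.82 TPM in hete and 5.39, 2.64, 1.74 and 2.12 TPM in homo. Replicate 1 was the highest of its group in both, and the other values intermixed. By limma-trend its log2 fold change was 0.28, with an SE of 0.32, a 95% interval of -0.44 to 1.0 and an adjusted p = 0.93, and it was 0.02 without homo replicate 1. Lcn2, whose protein binds bacterial iron carriers and is also made by epithelia, had 0.56, 0.53, 0.38 and 0.6 TPM in hete and 1.95, 0.53, 0.58 and 0.26 in homo. Only homo replicate 1 left the hete range upward, and without it the log2 fold change went from 0.19 to -0.06.

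The azurophil granule genes were at or near 0. Mpo was listed at 0 in hete replicates 1 and 3 and homo replicates 2 and 4, and its highest value was 0.26 TPM in hete replicate 2. Elane was above 0 in 2 libraries, at 0.24 TPM in hete replicate 2 and 0.13 in homo replicate 1. Their log2 fold changes were -0.04 (SE 0.08) and -0.03 (SE 0.08).

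Retnlg, a resistin-like secreted protein of mature granulocytes, and Ly6g, the surface antigen used to sort mouse neutrophils, were also sparse. Retnlg had 0.55 and 0.31 TPM in hete replicates 2 and 4, 0.28 and 0.83 in homo replicates 2 and 4, and was listed at 0 in replicates 1 and 3 of each group. Its highest values thus did not fall in homo replicate 1, where S100a9, S100a8, Ngp, Camp and Lcn2 peaked. Ly6g was listed at 0 in 7 libraries and had 0.13 TPM in homo replicate 1, so no fold is given for it.

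**Figure D1:**
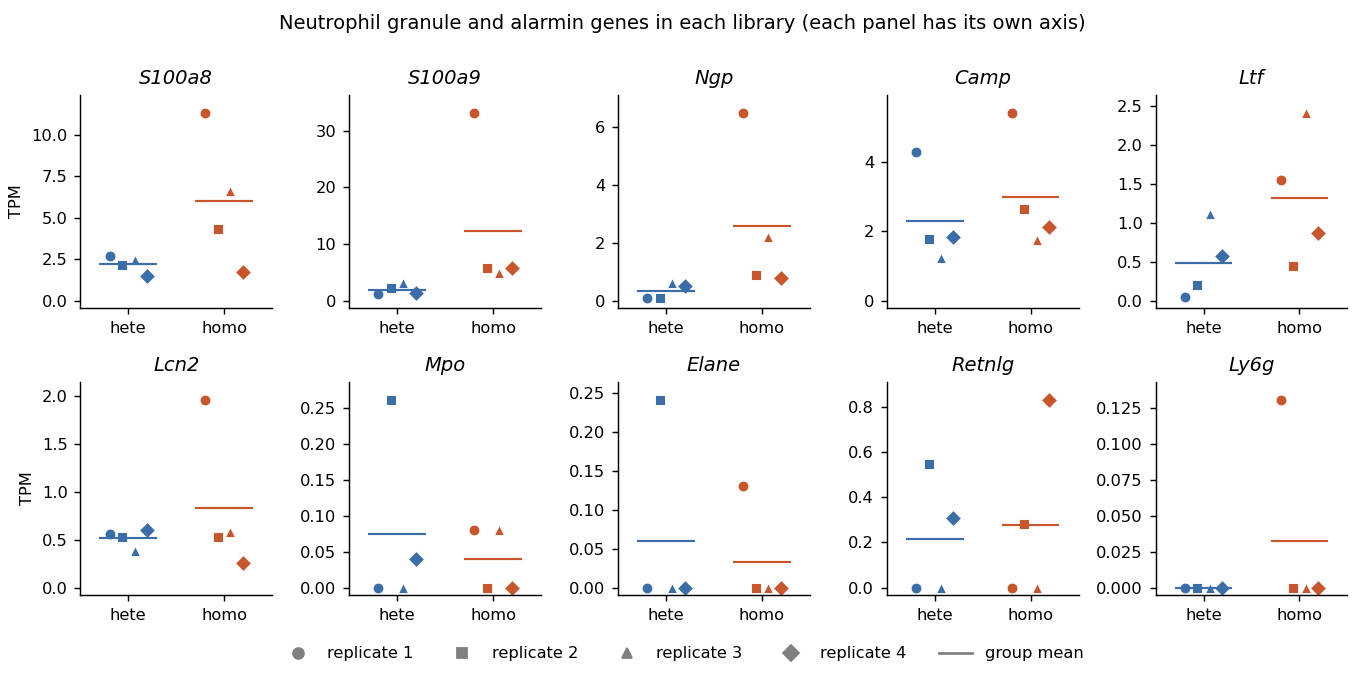
TPM of each of the 10 members in the 4 hete (blue) and 4 homo (orange) libraries; marker shapes give the replicate number, lines the group mean, and each panel has its own vertical axis. S100a9 and Ngp do not overlap between groups, and homo replicate 1 holds the highest value of S100a8, S100a9, Ngp, Camp, Lcn2 and Ly6g.

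None of the 10 members changed by limma-trend at an adjusted p under 0.05, with or without the filter on low values. Over all tested genes 0.0112% were called, 2 of 17811, and 0.00252% with no filter. At an unadjusted p under 0.05 there were 3 of the 4 tested members, S100a8, S100a9 and Ngp, all higher in homo. Over tested genes, 6.05% had such a p and 3.56% had it with homo higher. Ngp reached the filter through its homo values, so it is not read against these shares. The log2 fold change was positive for 8 of 10 members, for 56.3% of tested genes and for 52% of genes above 0, and 1 of the 8 is Ly6g with its single value. The median log2 fold change of the 10 was 0.23, beside 0.00 over all genes above 0. Groups did not overlap, with homo higher, for 2 members, S100a9 and Ngp, and for 1.46% of genes above 0 or 2.58% of tested genes.

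Homo replicate 1 was alone the highest of the 8 libraries for 6 of 10 members. It was so for 14.6% of genes above 0 and 18.7% of tested genes. The 10 members added up to 60.11 TPM there, to 12.27 to 18.56 TPM in the other homo libraries and to 6.6 to 8.88 TPM in hete. S100a8 and S100a9 made up 60.3 to 73.9% of these sums in homo and 41.7 to 62.2% in hete. The sums therefore do not describe the 10 members alike. The summed level of the 4 specific granule genes was 15.36 TPM in homo replicate 1, 4.04 to 6.94 in the other homo libraries and 2.59 to 4.98 in hete, so groups overlapped. Leaving out homo replicate 1 left 6 members with a positive log2 fold change, Camp among them at 0.02. Lcn2 turned to -0.06, and Ly6g, listed at 0 in all remaining libraries, had no fit.

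**Figure D2:**
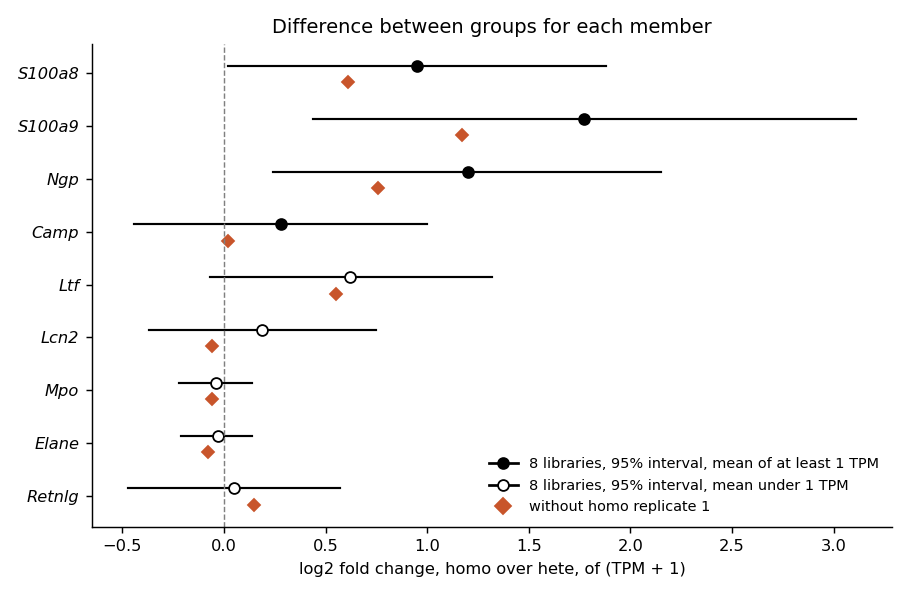
Log2 fold change of TPM + 1, homo over hete, with its 95% interval over all 8 libraries (circles) and without homo replicate 1 (diamonds), for the 9 members above 0 in both groups; open circles mark members with a mean under 1 TPM. The intervals of S100a8, S100a9 and Ngp exclude 0 before adjustment over all genes, and every diamond of the top 6 genes lies left of its circle.

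The authors' deposited table of gene ontology enrichment, which tests 142 study genes against a background of 47150, names 4 of the members. S100a9 stands in 66 of its 387 terms, Ltf in 62, S100a8 in 59 and Ngp in 14, per the authors' deposited table. The 6 others stand in no listed term, which does not show whether they were among the 142. No file used here says how the 142 genes were chosen or in which direction each differed. An adjusted p under 0.05 is given for 13 terms of the authors' deposited table, and 8 of these name S100a8 and S100a9. One is neutrophil chemotaxis, where 5 of the 142 genes fall in a term of 89 (authors' deposited table, adjusted p = 0.0286); the others of the 5 are the chemokines Cxcl10, Ccl21b and Ccl21e. Another is neutrophil aggregation, with S100a8 and S100a9 as 2 study genes in a term of 3 (authors' deposited table, adjusted p = 0.0286). The term specific granule holds Ngp and Ltf at an adjusted p = 0.969 in the authors' deposited table. The 4 members named there are those with the largest log2 fold changes of the 10 here, none of which passed limma-trend over all genes. That table is labelled with the same homo against hete comparison, so this match is not independent support. The 8 terms also share S100a8 and S100a9 and are not separate results.

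Other genes of neutrophil granules were read from a list of 12, of which 8 were higher and 4 lower in homo with no filter (median log2 fold change 0.06, against 0.00 over all genes above 0). Their summed level was highest in homo replicate 1 at 48.4 TPM, against 15.0 to 38.8 in the other homo libraries and 18.5 to 32.4 in hete, and 4 of the 12 were highest there. Mmp9 made up 35.14 TPM of that sum. With the filter, 4 were tested, 3 higher and 1 lower in homo, 0 called and 0 at an unadjusted p under 0.05 by limma-trend (median log2 fold change 0.05, against 0.02 over all tested genes). Without homo replicate 1 the higher number was 1. Pglyrp1, a peptidoglycan recognition protein, averaged 2.45 ± 0.919 TPM across hete and 3.23 ± 0.738 across homo libraries, and Prtn3, an azurophil granule protease, 2.46 ± 0.884 and 2.15 ± 0.416. Prtn3 thus stood at levels that Mpo and Elane did not reach in any library. Mmp9, a gelatinase of neutrophil granules that osteoclasts also make, was the highest of the list at 4.85 to 35.14 TPM in homo and 10.26 to 25.34 in hete. Chil3, a chitinase-like protein of granulocytes and macrophages chosen after its values were seen, had 1.75 TPM in homo replicate 1, 0 to 0.43 in the other homo libraries and 0 to 0.08 in hete.

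Among 18 surface and signalling genes of neutrophils, 12 were higher and 6 lower in homo with no filter (median log2 fold change 0.06, against 0.00 over all genes above 0). With the filter, 7 were tested, 4 higher and 3 lower, 0 called and 1 at an unadjusted p under 0.05 by limma-trend (median 0.24, against 0.02 over all tested genes). Without homo replicate 1 only 4 of them reached the filter, 2 of which were higher. The stefins are small inhibitors of cysteine proteases that myeloid cells make. All 4 listed Stfa genes were highest in homo replicate 1, as were 6 of the 18 in all and 14.6% of genes above 0. Stfa2l1 had 0.69 TPM in hete replicate 1, was listed at 0 in the other hete libraries, and had 5.87, 0.67, 1.45 and 1.98 in homo (limma-trend log2 fold change 1.41 with an SE of 0.4, adjusted p = 0.669). Stfa3 had 0.72 TPM in hete replicate 1, was listed at 0 in the other hete libraries, and had 7.57, 0.71, 0 and 1.4 in homo. Stfa2l1, the 1 gene with an unadjusted p under 0.05, and Stfa3 reached the filter through their homo values, as did Ngp, so they had to differ to be tested. Stfa1, chosen after its values were seen, did so too, with means of 0.507 TPM in hete and 1.87 in homo. Each of these Stfa genes is among the 4 counted as higher. The Stfa genes are close copies of one another, so the authors' counting may have split reads between them. The integrin subunit Itgam, shared with macrophages, averaged 2.58 ± 0.407 TPM for hete and 2.37 ± 0.155 for homo. Receptors that define neutrophils were low, with Cxcr2, the main chemokine receptor, at 0 to 0.12 TPM in all 8 libraries and Csf3r, the G-CSF receptor, at 0.61 to 1.83; both were chosen after their values were seen.

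**Figure D3:**
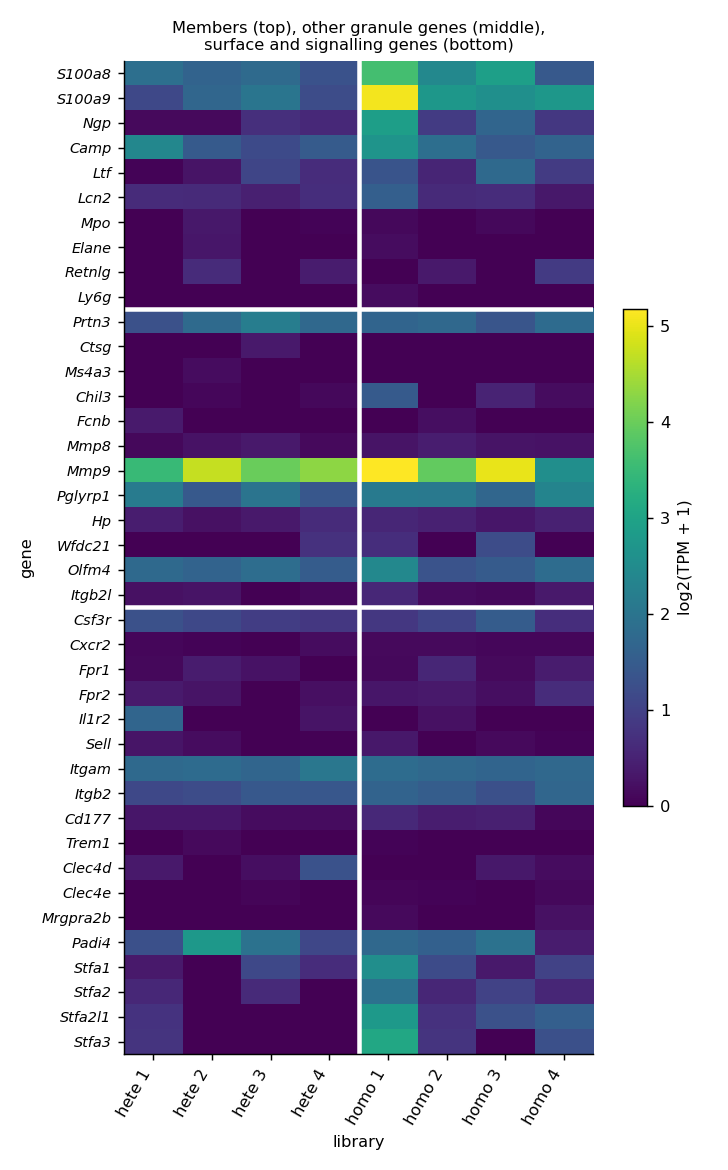
Level of the 10 members, 12 other granule genes and 18 surface and signalling genes (rows) in the 8 libraries (columns), coloured by log2(TPM + 1) from 0. Within their rows, S100a9, S100a8, Ngp and the Stfa genes are brightest in homo replicate 1, while most receptor rows stay dark in every library.

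The listed transcription factors that drive granulocyte genes were not higher in homo as a group. Bulk RNA does not tell which cells made these transcripts, so the list is not read as a measure of granulocytes. Of 7 listed, 6 were tested, 2 higher and 4 lower, 0 called and 0 at an unadjusted p under 0.05 by limma-trend (median -0.06). Hete and homo means were 3.79 ± 0.35 and 3.25 ± 0.243 TPM for Cebpd, 3.63 ± 0.738 and 3.19 ± 0.387 for Gfi1, and 13.8 ± 0.721 and 14.4 ± 1.3 for Cebpb. Cebpe, the factor of specific granule genes, chosen after its values were seen, was above 0 in 2 libraries, at 0.17 TPM in hete replicate 2 and 0.28 in homo replicate 3.

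Receptors and adaptors through which S100a8 and S100a9 signal were present in every library. Of 7 tested, 2 were higher and 5 lower, 0 called and 1 at an unadjusted p under 0.05 by limma-trend (median -0.05). Myd88, the adaptor of Toll-like receptors, averaged 15.8 ± 1.49 TPM across hete and 13.2 ± 1.32 across homo libraries (limma-trend log2 fold change -0.24, adjusted p = 0.778). Ager, the receptor RAGE, had 13.4 ± 0.609 and 12.3 ± 1.25 TPM. Bsg, a membrane protein that binds S100a9, was far more abundant than the alarmins, at 1347 to 1522 TPM in homo and 1385 to 1523 in hete. The higher number was 0 without homo replicate 1.

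Chemokines and cytokines listed as neutrophil attractants were scarce apart from Cxcl12. Of the 11 listed, 1 was tested: Cxcl12, a stromal chemokine, averaged 92.1 ± 12.8 TPM across hete and 99.1 ± 6.32 across homo libraries. With no filter 7 were higher in homo and 3 lower (median log2 fold change 0.09, against 0.00 over all genes above 0). The neutrophil chemokines Cxcl1, Cxcl2, Cxcl3 and Cxcl5, chosen after their values were seen, reached at most 0.81 TPM in any library. Ppbp of the same list, chosen likewise, had 0.11 to 0.61 TPM in hete and 0.31 to 0.91 in homo. Of 10 acute phase genes, which often accompany Lcn2 in inflamed epithelia, 5 were tested, 1 higher and 4 lower, 0 called and 0 at an unadjusted p under 0.05 by limma-trend (median -0.08). The higher one was Serpina3n, a protease inhibitor, at 4.46 ± 1.82 and 8.25 ± 3.53 TPM for hete and homo (limma-trend log2 fold change 0.73, adjusted p = 0.855), with its lowest homo value, 3.76 TPM, in homo replicate 1. Lbp, which binds bacterial lipopolysaccharide, averaged 97.8 ± 5.57 and 86.9 ± 9.82 TPM, and Cp, ceruloplasmin, the highest of the list, 181 ± 20.0 and 164 ± 23.4.

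Of 14 other S100 genes, 9 were tested, 4 higher and 5 lower, 0 called and 0 at an unadjusted p under 0.05 by limma-trend (median -0.07). S100a1, the highest of them, averaged 662 ± 95.9 TPM across hete and 583 ± 61.6 across homo libraries, and S100a13 47.5 ± 7.78 and 41.4 ± 5.19. Of the 12 above 0 in any library, 6 were higher and 6 lower with no filter. S100g, a vitamin D-dependent calcium-binding protein chosen after its values were seen, was the 1 of the 14 highest in homo replicate 1. Its values were 0.47 TPM and 3 listed at 0 for hete, and 1.35, 0.9, 0.97 and 0 for homo, so that, as for S100a8, only homo replicate 4 lay within the hete range (log2 fold change 0.65 with no filter, limma-trend, unadjusted p = 0.0399, adjusted p = 0.816). S100a3, also chosen after its values were seen, averaged 0.217 ± 0.251 TPM across hete and 0.662 ± 0.373 across homo libraries.

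Genes with the most similar course over the 8 libraries were sought among 14102 other tested protein-coding genes, by the mean absolute difference between log2(TPM + 1) values centred on each gene's own mean. Nearest to S100a9 were Wdhd1 (0.46), Ngp (0.46), Cstdc5 (0.48), Stfa3 (0.49) and Stfa2l1 (0.50), where the median over all candidates was 0.88. Of these 5, Ngp is a granule gene, and Cstdc5, Stfa3 and Stfa2l1 belong to the cystatin family of protease inhibitors; the mean of Cstdc5, too, was under 1 TPM in hete and above it in homo. Nearest to S100a8 were Wdhd1 (0.31), Plekhg4 (0.33), Adcyap1 (0.33), Lrch4 (0.34) and Mndal (0.36), with a median of 0.63. Wdhd1, a DNA replication factor, had 2.98 to 3.2 TPM in hete and 22.37, 5.34, 4.61 and 3.0 in homo. With so many candidates and 8 libraries, which share their tissue and preparation, a close course is a description only.

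Markers of other blood and tissue cells were read in the same libraries. Hair cell and supporting cell markers of the labelled tissue were present in every library. Of 5 hair cell markers 1 was higher and 4 lower, 0 called and 2 at an unadjusted p under 0.05 by limma-trend: Otof, needed for transmitter release, had a log2 fold change of -0.3 and Ocm, a calcium buffer of outer hair cells, -0.92. Supporting cell markers were 5 of 5 higher, 0 called and 2 at an unadjusted p under 0.05, namely Otog (0.28) and Tecta (0.56), which encode proteins of the tectorial membrane. The 5 markers summed to 484.2 to 707.0 TPM in hete and 817.7 to 866.0 in homo without overlap, with 842.9 in homo replicate 1. Most of each sum was Tecta, at 290.87 to 537.51 TPM in hete and 614.46 to 686.99 in homo. Only Tecta and Otog, 2 of the 5, had groups without overlap, so the sums do not describe supporting cells as a whole. The part of this difference in the members' values was not tested. Erythroid markers, 6 tested with 0 higher and 6 lower, summed to 2472 to 5336 TPM in hete and 3121 to 4085 in homo, with 3651 in homo replicate 1. The globin gene Hbb-bs was the highest of them, averaging 1676 TPM for hete and 1416 for homo, and Hbb-bt averaged 257 and 219. Macrophage markers, all 14 tested with 5 higher and 9 lower, summed to 452.2 to 496.1 TPM in hete and 445.5 to 535.7 in homo, with 454.4 in homo replicate 1. Of the macrophage markers 0 were called and 1 had an unadjusted p under 0.05 by limma-trend, Aif1, which encodes a calcium-binding protein of macrophages, at 12.27 to 13.82 TPM for hete and 8.96 to 12.82 for homo (log2 fold change -0.3, adjusted p = 0.747). Hete and homo means were 26.2 ± 6.22 and 32.1 ± 4.7 TPM for Fcer1g, an Fc receptor subunit, and 63.9 ± 9.15 and 70.3 ± 7.7 for C1qa, a complement component. Homo replicate 1 therefore lay within the range of the other libraries for both lists.

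Bone markers, whose RNA may come from otic capsule taken along with the tissue, varied widely. Where this RNA came from was not tested. They summed to 92.0 to 563.6 TPM in hete and 87.0 to 450.5 in homo, 3 of 6 higher and 3 lower (0 higher without homo replicate 1), and homo replicate 1 had 450.5. The part of bone tissue in the members' values was not tested. Within homo, the bone sums of 450.5, 341.1, 301.5 and 87.0 TPM for replicates 1, 3, 2 and 4 had the same order as the members' sums of 60.11, 18.56, 14.77 and 12.27. Within hete, the highest bone sums, 563.6 and 457.6 TPM in replicates 2 and 4, stood beside the lowest members' sums, 8.02 and 6.6. Ibsp, a bone matrix protein, had 208.47 TPM in homo replicate 1 and 172.03 in hete replicate 2, and Bglap2, an osteocalcin gene, 81.65 and 199.29. Lymphocyte markers summed to 104.3 TPM in homo replicate 1 and 46.0 to 100.2 in the others, nearly all of it Ighm. Of the 2 tested, Cd79b, a B cell receptor subunit, had a log2 fold change of 0.09 and Ighm one of -0.33. With no filter 3 of the list were higher in homo and 6 lower. The part of lymphocyte RNA in the values of homo replicate 1 was not tested. Monocyte markers (4 tested, 2 higher and 2 lower), platelet markers (3 tested, 2 higher and 1 lower) and markers of eosinophils, basophils and mast cells (3 tested, 0 higher and 3 lower) held 0 called genes and 0 at an unadjusted p under 0.05 by limma-trend. Homo replicate 1 stood within the range of the other libraries for all 3, at 29.3, 56.4 and 4.3 TPM.

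**Figure D4:**
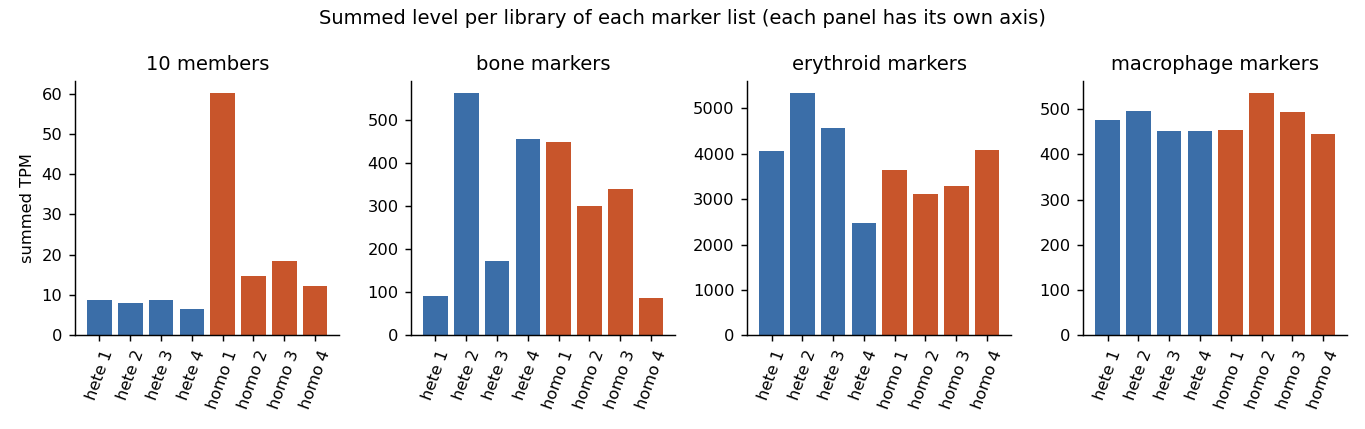
Summed TPM per library of the 10 members and of bone, erythroid and macrophage markers, hete in blue and homo in orange; the axes start at 0 and differ between panels. The members reach 60.11 TPM in homo replicate 1, of which S100a8 and S100a9 make up 73.9%. The highest bone and erythroid sums are in hete replicate 2 and the highest macrophage sum in homo replicate 2.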

How the data were processed

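Polyadenylated RNA of 8 libraries, 4 hete and 4 homo, was measured; groups and replicate numbers come from the sample titles. The authors deposited TPM per gene for 78317 genes, rounded to 2 decimals, with each library adding up to 1000000 within 1. The labels' protocols name a stranded mRNA preparation from 1 µg of total RNA. fastp, HISAT2, StringTie, RSEM, DESeq2 and GRCm39 appear in the submitters' processing notes, which give neither a role nor a version. Depth per library is unknown, as TPM does not keep it, so no interval for counting error was computed. The authors also deposited a table of gene ontology terms with a count of study genes, a p-value and an adjusted p-value per term. A table of splicing event numbers without gene names was not used.

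A linear model of log2(TPM + 1) on genotype alone was run in limma 3.58.1 under R 4.3.3, with trend and robust eBayes, over the 17811 genes averaging 1 TPM or more, with Benjamini-Hochberg adjustment over all of them and a threshold of 0.05. Members under that mean were read from the same fit over all 39753 genes above 0 in any library. Fold changes are homo over hete on this scale, which understates changes of low genes. The fit was tested on simulated data for this comparison with 17811 genes. It recovered 37.3% of 67 genes changed 1.5-fold, 86.6% of 67 changed 2-fold and 97% of 66 changed 4-fold, and 8 of its 155 calls were false. These folds were set on TPM + 1, with normal noise, in genes drawn at random from all tested levels. The rates therefore do not tell which changes could be called in members as low or as variable as these.

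The members and the 16 context lists were chosen with earlier results of these data known. The genes named are all members, the 2 tested genes with the smallest p and the highest gene of each list where the text describes genes of it, and the 5 genes most like S100a8 and S100a9; others are said to be chosen after their values were seen. Alternatives were 2 other scalings, 2 other filters, a pseudocount of 0.1, eBayes without the robust option, the replicate number as a block and each library left out in turn. Plots were made in Python 3.11.15 using matplotlib 3.10.9.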

Additional observations from a re-analysis of the deposited data

Results flagged for a closer look

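In groups of 4 libraries, 106 sets of values were read for a library standing apart from the other 3, and 12 had one. Chance marks about 1 in 20 sets where values are normally spread and genes are chosen without regard to them. A set with a single value above 0 beside zeros is always marked. Some genes were also picked for a course like that of S100a8 or S100a9 (Wdhd1, Adcyap1, Cstdc5, Stfa2l1 and Stfa3 below). The number is therefore not read against that rate. Among the members, 5 of 20 sets had one. S100a9 was at 33.1 TPM in homo replicate 1 and at 4.94 to 5.67 in the other homo libraries. Elane was at 0.13 TPM and Ly6g at 0.13 TPM in homo replicate 1 and listed at 0 in the other homo libraries, so these rest on a low value beside 0. In hete replicate 2, Mpo was at 0.26 TPM and Elane at 0.24 TPM, with 0 to 0.04 and 0 in the other hete libraries.

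Among the other named genes, homo replicate 1 stood apart for Wdhd1, at 22.37 TPM against 3.0 to 5.34 in the other homo libraries, and for Cstdc5, a cystatin, at 7.19 TPM against 1.11 to 1.77. Stfa2l1 at 0.69 TPM and Stfa3 at 0.72 TPM stood apart in hete replicate 1, the other hete libraries being listed at 0. The bone gene Bglap2 was at 12.78 TPM in homo replicate 4 and 81.65 to 86.64 in the other homo libraries. Wdhd1 was at 3.2 TPM in hete replicate 2 against 2.98 to 3.0, and Adcyap1, a neuropeptide gene, at 2.94 TPM in hete replicate 3 against 0.23 to 0.59.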

How the results depend on the processing

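Over 133 refits of single members, 127 kept the direction and the side of the threshold, and 0 called a member (lowest adjusted p 0.351 by limma). S100a9 ranged from 1.17 to 2.18 on the log2 scale, Ngp from 0.76 to 2.42, S100a8 from 0.61 to 1.33, Camp from 0.02 to 0.53 and Ltf from 0.41 to 1.5. The 6 that turned sign were Lcn2 without homo replicate 1 (-0.06), Mpo (0.04) and Elane (0.04) without hete replicate 2, and Retnlg without hete replicate 1 (-0.03), hete replicate 3 (-0.03) or homo replicate 4 (-0.14). With a library left out these 4 spanned -0.06 to 0.35 for Lcn2, -0.07 to 0.04 for Mpo, -0.08 to 0.04 for Elane and -0.14 to 0.18 for Retnlg. The number of members higher in homo was 6 to 10 with a library left out and 8 under the other alternatives. The 6 came without homo replicate 1, where Ly6g had no fit. Genes called over the whole table numbered 2 in the main test, 1 with no filter on low values, 3 with at least 5 TPM in 4 libraries and 1 to 5 with a library left out. With the replicate block 1 gene was called. Same-numbered libraries did not deviate together (r of -0.0837 to 0.0491 over tested genes, none correlating best with its own number), so the numbers are not read as pairs. With a library left out, the number of list genes higher in homo was 1 to 3 for other granule genes, 2 (of 4 reaching the filter) to 5 (of 7) for surface genes, 2 to 4 for transcription factors, 0 to 3 for alarmin receptors, 1 to 2 for acute phase genes, 0 to 3 for erythroid, 5 to 9 for macrophage, 1 to 3 for monocyte, 0 to 1 for eosinophil, basophil and mast cell, 1 to 2 for platelet, 0 to 1 for lymphocyte (1 or 2 reaching the filter), 0 to 6 for bone and 1 to 2 for hair cell markers; the cause was not tested. Depth is unknown, so values near 0 carry no detection limit.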

Other observations

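Some genes of the neutrophil surface and signalling list had a high value in 1 hete library, chosen here after their values were seen. Il1r2, a decoy receptor for interleukin 1, had 2.2 TPM in hete replicate 1 and 0 to 0.2 in the 7 other libraries. Clec4d, a lectin of myeloid cells, had 1.46 TPM in hete replicate 4 and 0 to 0.28 elsewhere. Padi4, the enzyme that citrullinates histones in neutrophils, had 5.76 TPM in hete replicate 2, 0.32 in homo replicate 4 and 1.16 to 2.89 in the others. Picked for a high hete value, these genes could not be highest in homo replicate 1. Of the 18 genes of their list, 6 were highest there.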
